A study of Homo sapiens with 12 samples.

Results

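The S100 proteins are a family of small calcium-binding proteins, and 10 of their genes are described here: S100A4, S100A6, S100A8, S100A9, S100A10, S100A11, S100A13, S100A14, S100A16 and S100P. On the Affymetrix Human Genome U133 Plus 2.0 arrays, the platform annotation gives these symbols to 14 probe sets, out of 54613 probe sets tested and of 19775 genes with a probe set of their own. All 14 carry a single symbol, and all were kept whatever their level. S100A6, S100A8, S100A10 and S100A13 have a brighter and a dimmer probe set, and the brighter one stood for the gene unless the dimmer one is named. The 10 genes were chosen by their measured values on these same arrays, among other things, and which levels or differences decided the choice is not recorded. Their levels and differences are therefore given as a description, with no test.

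Each of 4 groups had 3 arrays of total RNA from established hepatocellular carcinoma lines. Hep3B cells, called DAAD2-sensitive in the study, had received 2 μM DAAD2 for 72 h, against Hep3B cells with 0.1% DMSO. SNU449 cells, called DAAD2-resistant, had received 20 μM DAAD2 for 72 h, against SNU449 cells with 0.1% DMSO. DAAD2 joins dehydroabietylamine, a diterpene amine of pine resin, to N-acetyl-L-cysteine. The dose differed between the lines, so that a difference between their responses is also a difference between doses. Each group is 1 cell line, and whether its arrays came from separate cultures is not stated. Hep3B still makes liver proteins and SNU449 is mesenchymal-like. The mean log2 level of 5 hepatocyte genes was 11.12 to 11.20 on Hep3B DAAD2 arrays and 11.42 to 11.53 on Hep3B DMSO arrays. It was 4.43 to 4.58 on SNU449 DAAD2 arrays and 4.32 to 4.40 on SNU449 DMSO arrays. All values are RMA levels on the log2 scale, where a difference of 1 is a doubling, and array medians lay between 3.709 and 3.85. Levels are set against each other only within a probe set, since probe sets differ in how brightly they bind.

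An S100 protein carries a pair of EF-hands, the helix-loop-helix folds that hold calcium, and most members work as dimers. When calcium binds, the dimer opens a hydrophobic face and grips a partner, often an annexin or a protein of the cytoskeleton. S100A10 is the exception, locked in the open shape without calcium, and it forms a tetramer with annexin A2. S100A8 and S100A9 pair as calprotectin, an abundant protein of neutrophils and monocytes that binds zinc and manganese and, once released, signals through TLR4 and RAGE (the product of AGER). In the liver, healthy hepatocytes hold little calprotectin, and several S100 proteins are known from liver tumours. Most S100 genes lie in 1 cluster on chromosome 1, which holds 9 of the 10 genes described here, and S100P lies on chromosome 4.

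The stretches of DNA just before the start sites are shown because the 10 genes split into 2 sets there by an exact match of letters. They run from 45 to 16 bases before the start, 5′ to 3′ on the strand of the gene, from RefSeq on GRCh38.p14, and capitals mark TATAAA, the core of a TATA box. The first 5 genes below have a start with the exact letters TATAAA at this place, and the other 5 of the 10 do not, of which 4 are shown. The stretches of S100A6 and S100A14 hold tataag, which differs only in its last letter. The split is therefore one of exact letters and does not sort genes by whether they have a TATA-like element.
S100A8: ggccaagcctaaccgcTATAAAaaggagct
S100A9: ccagtcaggagctgccTATAAAtgccgagc
S100P: tcaatatgaggctgcctTATAAAgcaccaa
S100A4: gggcctggctggggTATAAAtaggtcagac
S100A13: ctccttccccgctgctTATAAAcctcagcc
S100A6: cggggcaccgaccgctataaggccagtcgg
S100A14: cctcccttcccccaggtataagagctgagc
S100A11: tctgagtaaggcttgggcaaggctgggccg
S100A16: aaggtgtgtatccctttaacaagggcccaa

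The stretch of S100A9 is chr1:153357809-153357838 on the plus strand, that of S100A8 chr1:153391089-153391118 on the minus strand and that of S100P chr4:6693833-6693862 on the plus strand. TATAAA began 29 bases before the start in S100A8, S100A9 and S100A13, 31 in S100A4 and 28 in S100P. For S100A8 and S100A13 this holds for 1 of 3 start sites each. Among all RefSeq windows 836 of 35114 (2.38%) had TATAAA in this place on the gene strand, against 5 of the 15 windows of the 10 genes (33.3%). In the whole window, from 250 bases before the start to 50 after it and on both strands, TATAAA stood in 6 of 15 member windows and in 11.5% of all windows. For the GC box GGGCGG these were 6 of 15 and 45%, for CCAAT 3 of 15 and 34.6%, and for the AP-1 motif TGANTCA 0 of 15 and 7.71%. A match is a description of the letters and not a measured site.

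**Figure D1:**
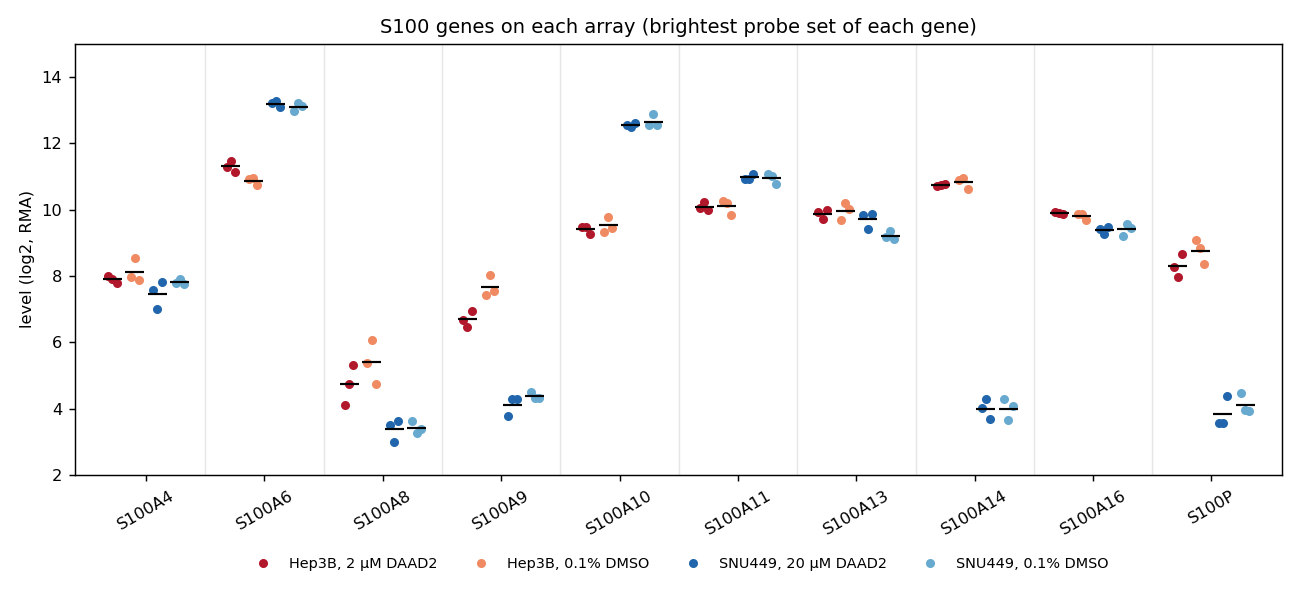
Level of each S100 gene (log2, RMA, vertical axis) on each of the 12 arrays, 3 a group, with the group mean as a bar. S100A8, S100A9, S100A14 and S100P sit higher on all Hep3B arrays and S100A6, S100A10 and S100A11 on all SNU449 arrays, and the DAAD2 and DMSO points of Hep3B lie farthest apart in S100A9 (means 6.70 and 7.67).

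S100A9, a chain of calprotectin, had the largest DAAD2 difference of the 10 genes in Hep3B. It was at 6.68, 6.47 and 6.95 on Hep3B DAAD2 arrays, against 7.42, 8.03 and 7.56 on Hep3B DMSO arrays. All 3 treated arrays lay below all 3 control arrays. The difference was -0.97 (standard error 0.18, 95% interval -1.37 to -0.57), which is a level 1.96-fold lower after DAAD2. Leaving out 1 array at a time gave -1.10 to -0.79. In SNU449, S100A9 was at 3.79, 4.28 and 4.30 on DAAD2 arrays, against 4.51, 4.31 and 4.31 on DMSO arrays. Here too the treated arrays lay below the controls, but the nearest arrays were 4.30 and 4.31 and the difference was -0.26 (standard error 0.16). The Hep3B difference minus the SNU449 difference was -0.71 (standard error 0.25).

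S100A8, the other chain, was at 4.12, 4.74 and 5.33 on Hep3B DAAD2 arrays, against 5.39, 6.07 and 4.73 on Hep3B DMSO arrays. The groups overlapped, since the lowest control array lay below the middle and the highest treated arrays. The difference of -0.67 (standard error 0.37) spanned 0 in its interval of -1.50 to 0.17, and it was -0.97 without Hep3B DAAD2 replicate 3 and -0.33 without Hep3B DMSO replicate 2. In SNU449 S100A8 was at 3.51, 2.99 and 3.63 on DAAD2 arrays, against 3.62, 3.28 and 3.38 on DMSO arrays, with a difference of -0.05 (standard error 0.18). The other S100A8 probe set stayed between 2.75 and 3.15 and below the array median on all 12 arrays, so only 1 of the 2 probe sets carried signal in Hep3B. Over the 12 arrays, after the mean of each line had been subtracted, S100A8 and S100A9 correlated at r = 0.63. This is a description of 12 arrays that also share the DAAD2 and DMSO groups.

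Calprotectin is best known from myeloid cells, so their markers were read beside it. PTPRC, the pan-leukocyte marker CD45, was at 3.07, 3.02 and 2.88 on Hep3B DAAD2 arrays, against 3.22, 3.19 and 3.28 on Hep3B DMSO arrays, and the myeloid transcription factor gene SPI1 stayed between 3.08 and 3.45 in Hep3B, both below every Hep3B array median. Brighter in Hep3B were CD14, a monocyte receptor, at 6.13, 5.44 and 5.76 on DAAD2 arrays, against 5.45, 5.42 and 5.24 on DMSO arrays (difference 0.40, adjusted p = 0.302 from limma), and CSF3R, the receptor of a granulocyte growth factor, at 6.52 to 6.96. LYZ, the gene of lysozyme, was bright in Hep3B, at 11.74, 11.42 and 11.47 on DAAD2 arrays, against 11.98, 12.15 and 12.29 on DMSO arrays (difference -0.59, standard error 0.12, adjusted p = 0.099 from limma). Of the 9 myeloid markers measured, 0 were called in Hep3B, as for all genes. All DAAD2 arrays lay below all DMSO arrays for 3 of the 9, against 10.3% of all genes. The mean of the list was 4.95 to 5.13 on Hep3B DAAD2 arrays and 5.13 to 5.23 on Hep3B DMSO arrays, and in SNU449 3.69 to 3.90 on DAAD2 arrays and 3.70 to 3.75 on DMSO arrays. All 5 hepatocyte genes had their DAAD2 arrays below all DMSO arrays in Hep3B, with a median difference of -0.36, a difference of -0.06 for ALB and 0 called. The 5 epithelial markers had positive estimates there, with a median of 0.34 and 0 called. The part of these markers in the S100A9 difference was not tested. In RNA of whole cultures, fewer cells with a transcript and less transcript per cell cannot be told apart.

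S100A6, or calcyclin, binds the SIAH-interacting protein CACYBP and annexins. It was at 11.30, 11.47 and 11.14 on Hep3B DAAD2 arrays, against 10.92, 10.97 and 10.75 on Hep3B DMSO arrays. All treated arrays lay above all controls, with a difference of 0.42 (standard error 0.12, 95% interval 0.16 to 0.69), or 1.34-fold. Its dimmer probe set, below the array median on all 6 Hep3B arrays, was at 3.51, 3.56 and 3.63 on Hep3B DAAD2 arrays, against 3.37, 3.16 and 3.35 on Hep3B DMSO arrays. In SNU449 the 2 groups overlapped, at 13.21, 13.28 and 13.10 on DAAD2 arrays, against 12.99, 13.22 and 13.14 on DMSO arrays (difference 0.08, standard error 0.11). S100A6 and S100A9 thus lay on opposite sides of their Hep3B controls, and their line-centred correlation over the 12 arrays was -0.80. This r still holds the differences between DAAD2 and DMSO arrays, so it is not a separate result.

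S100P, first found in placenta, is a ligand of RAGE and a partner of ezrin. It was at 8.26, 7.98 and 8.67 on Hep3B DAAD2 arrays, against 9.09, 8.85 and 8.35 on Hep3B DMSO arrays. The groups overlapped, and the difference was -0.46 (standard error 0.22, 95% interval -0.96 to 0.04). On SNU449 arrays it was at 3.56, 3.58 and 4.39 after DAAD2, against 4.46, 3.96 and 3.93 with DMSO, with a difference of -0.27 (standard error 0.24).

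S100A13, which helps export FGF1 and IL1A from cells by a route without a signal peptide, had the largest difference of the 10 genes in SNU449. It was at 9.84, 9.41 and 9.88 on SNU449 DAAD2 arrays, against 9.17, 9.36 and 9.13 on SNU449 DMSO arrays. The treated arrays all lay above the controls, with a difference of 0.49 (standard error 0.15, 95% interval 0.15 to 0.83), or 1.41-fold. The lowest treated array was SNU449 DAAD2 replicate 2, whose GAPDH probe sets stood apart: the 3′ one read 1.988 above the 5′ one on the log2 scale, where the remaining SNU449 arrays had 0.343 to 0.967. Without that array the difference was 0.64, and with the GAPDH value as a covariate it was 0.65. The dimmer probe set ran the other way, at 3.41, 3.45 and 3.26 on SNU449 DAAD2 arrays, against 3.84, 3.72 and 3.63 on SNU449 DMSO arrays, a difference of -0.35 (standard error 0.11). It lay below the array median on 11 of the 12 arrays, and the mean of both probe sets differed by 0.07. In Hep3B S100A13 was at 9.92, 9.72 and 9.99 on DAAD2 arrays, against 9.70, 10.20 and 10.01 on DMSO arrays, and the groups overlapped (difference -0.09, standard error 0.14). Among Hep3B arrays the GAPDH value was highest on DMSO replicate 1, at 1.514, against 0.453 to 1.053 on the rest. That array is a control for every Hep3B difference given here, that of S100A9 among them. Over the alternatives that left out no array, the GAPDH value as a covariate among them, the S100A9 difference in Hep3B was -1.13 to -0.91.

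S100A4, which binds non-muscle myosin IIA and is linked to motility and mesenchymal cells, was at 8.01, 7.92 and 7.80 on Hep3B DAAD2 arrays, against 7.97, 8.53 and 7.89 on Hep3B DMSO arrays. The groups overlapped, with a difference of -0.22 (standard error 0.17), which was -0.02 without Hep3B DMSO replicate 2. On SNU449 arrays it was at 7.58, 7.0 and 7.83 after DAAD2, against 7.78, 7.92 and 7.76 with DMSO. The value of 7.0 came from SNU449 DAAD2 replicate 2, the array with the high GAPDH value. The difference was -0.35 (standard error 0.20) with that array and -0.11 without it.

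The other 4 genes differed little after DAAD2 in either line. S100A10, the partner of annexin A2, had a difference of -0.12 (standard error 0.13) in Hep3B and -0.11 (standard error 0.13) in SNU449, and overlapping groups in both. Its dimmer probe set had -0.34 (standard error 0.11) in Hep3B, with all DAAD2 arrays below all DMSO arrays, and 0.08 (standard error 0.26) in SNU449. S100A11, a partner of annexin A1, had -0.01 (standard error 0.13) in Hep3B, where its 95% interval ran from -0.31 to 0.28, and 0.02 (standard error 0.12) in SNU449. S100A14 had -0.09 (standard error 0.11) in Hep3B and -0.01 (standard error 0.20) in SNU449. S100A16 was at 9.94, 9.91 and 9.88 on Hep3B DAAD2 arrays, against 9.86, 9.86 and 9.68 on Hep3B DMSO arrays. These arrays did not overlap, but the difference was 0.11 (standard error 0.09) and was -0.00 after quantile normalization.

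**Figure D2:**
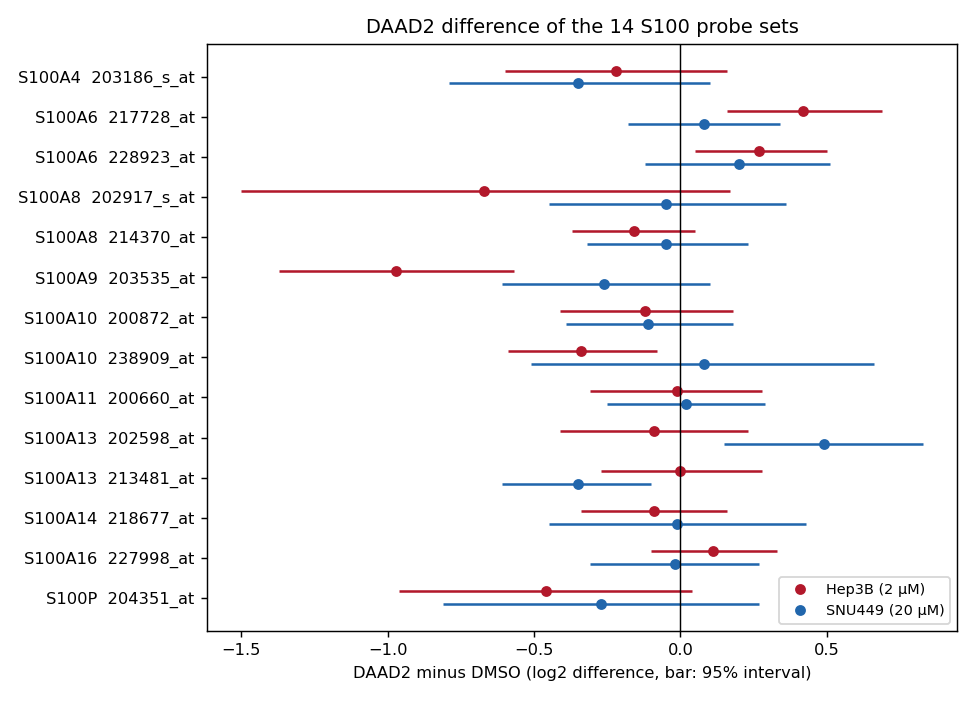
DAAD2 minus DMSO (log2 difference, horizontal axis) for each of the 14 S100 probe sets, as the limma estimate with its 95% interval, in Hep3B and in SNU449 from 3 arrays against 3. S100A9 in Hep3B (-0.97) lies farthest from 0, and the 2 probe sets of S100A13 lie on opposite sides of 0 in SNU449 (0.49 and -0.35).

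By count, 0 of the 14 probe sets passed an adjusted p of 0.05 in Hep3B, where 0 of all 54613 did (0%), although 8191 had an unadjusted p under 0.05 (15%). At a fold over 1.5 with an unadjusted p under 0.05, 1 of 14 was left in Hep3B (S100A9), against 1.62% of all probe sets, and 1 of 14 for the difference between the lines (S100A9), against 6.78%. In SNU449 0 of 14 passed, against 1.46% of all probe sets, and for the difference between the lines 0 of 14 passed, against 2.01%. The arrays of the 2 groups did not overlap for 5 of the 14 in Hep3B, 3 above and 2 below, where 21% of all probe sets did not overlap. For SNU449 this held for 3 of 14, 1 above and 2 below, against 16.1%. The median difference of the 14 was -0.10 in Hep3B, against -0.02 over all probe sets, and -0.03 in SNU449, against 0.01. Bright probe sets as a whole lay above 0 in Hep3B: among the 17289 with a level over 5 on at least 3 arrays the median was 0.13. Since measured values led to the choice of the genes, nothing is read from these counts. In Hep3B 2 of the 10 genes had a positive and 8 a negative estimate, against 9617 and 10158 of all 19775 genes. For the 10 genes this became 3 and 7 when arrays were centred on their medians, and 1 and 9 after quantile normalization. Nothing is read from these signs either.

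For 9 of the 10 genes the lines differed more from each other on the DMSO arrays than DAAD2 from DMSO arrays in either line, with S100A4 as the exception. These values use the same DMSO arrays as the treatment comparisons. S100A14, an S100 protein of epithelia, was at 10.90, 10.97 and 10.63 on Hep3B DMSO arrays, against 4.28, 3.66 and 4.07 on SNU449 DMSO arrays. No other gene of the 10 had as large a difference between the lines, at 6.83 (standard error 0.17), or 114-fold. The SNU449 levels of S100A14, S100P and S100A9 lay near the array medians and those of S100A8 below them, where signal cannot be told from background, so the folds of these 4 genes are best read as lower bounds. S100P was at 9.09, 8.85 and 8.35 in Hep3B, against 4.46, 3.96 and 3.93 in SNU449, a difference of 4.65 (standard error 0.21), or 25-fold. S100A9 was 3.29 higher in Hep3B (standard error 0.16), or 9.8-fold, and S100A8 1.97 higher (standard error 0.29), or 3.92-fold. In none of these 4 did an array of Hep3B overlap one of SNU449, and after DAAD2 S100A9 in Hep3B still lay above every SNU449 array. Smaller differences toward Hep3B were 0.75 (standard error 0.14) for S100A13 and 0.39 (standard error 0.12) for S100A16.

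The genes higher in SNU449 were S100A6, S100A10 and S100A11, whose proteins bind annexins. S100A10 was at 9.34, 9.78 and 9.46 on Hep3B DMSO arrays, against 12.56, 12.89 and 12.55 on SNU449 DMSO arrays. This is a difference of -3.14 (standard error 0.15), or 8.81-fold higher in SNU449. S100A6 differed by -2.23 (standard error 0.11), or 4.7-fold, and its dimmer probe set by -0.99 (standard error 0.10). S100A11 was at 10.26, 10.20 and 9.85 on Hep3B DMSO arrays, against 11.07, 11.03 and 10.78 on SNU449 DMSO arrays, a difference of -0.86 (standard error 0.14). S100A4 was at a like level in both, with overlapping arrays and a difference of 0.31 (standard error 0.17, 95% interval -0.07 to 0.69). Of the 14 probe sets 11 passed, 6 higher and 5 lower in Hep3B, where 29.3% of all probe sets passed, 14.5% higher and 14.8% lower. The arrays of the lines did not overlap for the same number, 11 of 14, against 41.6%. These shares include many dim probe sets: among the 18390 with a level over 5 on at least 3 DMSO arrays, 66.8% passed. Among the 10 genes 9 passed, against 40.8% of all genes, and since the choice of genes may have used this contrast, nothing is read from it.

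**Figure D3:**
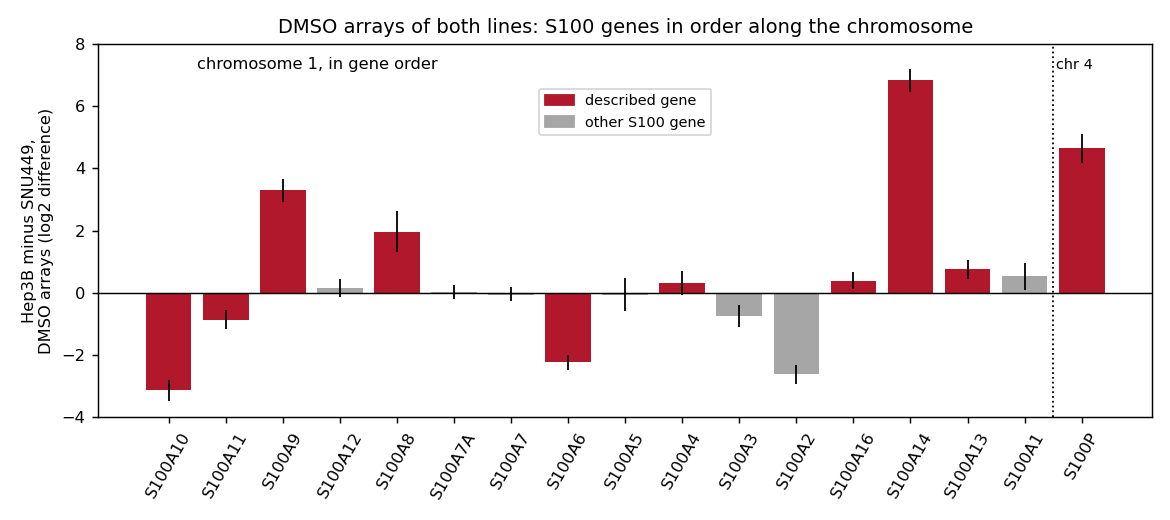
Hep3B minus SNU449 on the DMSO arrays (log2 difference with its 95% interval, vertical axis) for the S100 genes in their order on chromosome 1, and for S100P. Genes described here are red and other S100 genes grey. S100A14 (6.83) stands between S100A16 (0.39) and S100A13 (0.75).

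Along chromosome 1, differences between the lines varied in size among neighbours. S100A14 lies between S100A16 and S100A13, which were also higher in Hep3B but by less than 1 log2 unit. S100A9 and S100A8 flank S100A12, which was at 3.20 to 3.58 in Hep3B and 3.16 to 3.40 in SNU449, while the pair of S100A10 and S100A11 lies apart from the rest and was higher in SNU449. Of 16 other genes listed beside the cluster, 15 were measured and 0 were called after DAAD2 in either line, with medians of -0.07 in Hep3B and 0.09 in SNU449. Over all genes 0% were called in Hep3B and 2.38% in SNU449. Between the lines 9 were called higher in Hep3B and 1 lower, where 21.4% of all genes were higher and 19.4% lower, with a median of 0.57 against -0.01 over all genes. Among the 18390 brighter probe sets 66.8% were called, 6319 higher and 5964 lower in Hep3B. The calls of SLC39A1 and NPR1 were lost in 6 of 14 and 5 of 13 alternatives, among them leaving out SNU449 DMSO replicate 1 or Hep3B DMSO replicate 2 or 3, and for SLC39A1 also SNU449 DMSO replicate 3 and for NPR1 SNU449 DMSO replicate 2. SLC27A3, a fatty acid transporter, was at 2.93 (adjusted p = 2.36e-07 from limma), INTS3 at 1.10 and DENND4B at 1.02, and RAB13, a small GTPase of vesicle traffic, at -0.51. On SNU449 DMSO arrays SLC27A3 was at 3.56, 3.97 and 3.73, near the array medians, so its difference is best read as a lower bound.

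The 10 other S100 genes measured showed 0 calls after DAAD2 in both lines, with medians of -0.11 in Hep3B and 0.06 in SNU449. The share called over all genes was 0% in Hep3B and 2.38% in SNU449. S100A1, a calcium sensor of muscle, differed by 0.50 in SNU449 (standard error 0.30, adjusted p = 0.608), and S100A3, known from hair, by 0.38 (adjusted p = 0.398). S100A2, an S100 protein of squamous epithelia, was at 5.30, 5.50 and 5.09 on Hep3B DMSO arrays, against 8.03, 8.02 and 7.72 on SNU449 DMSO arrays (difference -2.62, adjusted p = 9.42e-07 from limma). S100A3 was also lower in Hep3B, by -0.74 (adjusted p = 0.00468), at levels near the array medians, and its call was lost with no moderation of the variances. The other 8 were not called, which leaves 0 called higher and 2 lower, where 21.4% of all genes were higher and 19.4% lower. S100A12, which together with S100A8 and S100A9 marks granulocytes, was below the median on every array.

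The partners that S100 proteins grip inside the cell were read next, as 14 measured genes of 15 listed. In Hep3B 0 passed after DAAD2, as for all genes. Of the 14 estimates 13 were positive, where 9617 of all 19775 genes were. The median was 0.18, against -0.01 over all genes. The count of positive estimates was 14 when arrays were centred on their medians, and 10 after quantile normalization, with medians of 0.23 and 0.09. The median of 0.18 stands beside 0.13 over the 17289 brighter probe sets. ANXA1, annexin A1, lay near the array medians in Hep3B, at 4.10, 4.23 and 3.84 on Hep3B DAAD2 arrays, against 3.37, 3.72 and 3.28 on Hep3B DMSO arrays (difference 0.60, standard error 0.15, adjusted p = 0.126 from limma). The S100A6 partner CACYBP was at 10.74, 10.84 and 10.59 on Hep3B DAAD2 arrays, against 10.35, 10.45 and 10.35 on Hep3B DMSO arrays (difference 0.34, adjusted p = 0.177). For these genes and for IQGAP1, ANXA2 and SUGT1 all treated arrays lay above all controls, which makes 5 of 14, where 15.9% of all genes did so. In SNU449 0 passed, against 2.38% of all genes, and the median was -0.09 against 0.00. EZR, the S100P partner ezrin, had the largest difference below 0 there, at -0.47 (standard error 0.17, adjusted p = 0.313).

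Between the lines, 10 of the 14 partner genes were called lower in Hep3B and 1 higher, where 19.4% of all genes were lower and 21.4% higher. Among the 18390 brighter probe sets 66.8% were called, 5964 lower and 6319 higher in Hep3B. ANXA1 was at 3.37, 3.72 and 3.28 on Hep3B DMSO arrays, against 11.55, 11.55 and 11.26 on SNU449 DMSO arrays, a difference of -8.00 (adjusted p = 2.42e-09 from limma). The Hep3B values lay below the array medians, so this size too is a bound. MYH9, the heavy chain of the non-muscle myosin that S100A4 binds, differed by -4.89 (adjusted p = 2.84e-07) although S100A4 itself overlapped between the lines. ANXA2, which joins S100A10, was at 11.65, 11.74 and 11.49 in Hep3B, against 13.23, 13.35 and 13.31 in SNU449 (difference -1.67, adjusted p = 2.73e-06). AHNAK, a giant scaffold protein that binds the S100A10 and annexin A2 complex, differed by -1.13 (adjusted p = 3.96e-05). PPFIBP1, a liprin bound by S100A4, was the 1 gene higher in Hep3B, by 0.84 (adjusted p = 7.31e-04). FGF1 and IL1A, cargoes of S100A13, were not called (differences -0.17 and -0.06).

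Of 7 receptors for released S100 proteins, 0 were called after DAAD2 in either line, with medians of 0.08 in Hep3B and 0.06 in SNU449. Of all genes 0% were called in Hep3B and 2.38% in SNU449. TLR4, a calprotectin receptor, was dim throughout, at 3.45, 3.10 and 3.53 on Hep3B DAAD2 arrays, against 3.64, 3.78 and 3.75 on Hep3B DMSO arrays (difference -0.36, adjusted p = 0.236 from limma). All treated arrays lay below the controls. AGER, the gene of RAGE, stayed between 3.84 and 4.85 on the 12 arrays. Between the lines CD36, a scavenger receptor that takes up fatty acids, was called higher in Hep3B, at 5.91, 5.98 and 5.66, against 2.85, 2.94 and 2.72 in SNU449 (difference 3.01, adjusted p = 1.63e-07). The SNU449 values of CD36 lay below the array medians, so this size too is a bound. BSG, or basigin, and NPTN, or neuroplastin, both receptors of calprotectin chains, were also higher in Hep3B, by 1.09 (adjusted p = 0.0315) and 0.72 (adjusted p = 5.60e-04). ALCAM was lower, by -0.57 (adjusted p = 0.00162). So 3 of the 7 were called higher and 1 lower in Hep3B, where 21.4% of all genes were higher and 19.4% lower. The call of BSG was lost under 5 of 14 alternatives, among them leaving out SNU449 DMSO replicate 1 or 3 or Hep3B DMSO replicate 2 or 3.

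**Figure D4:**
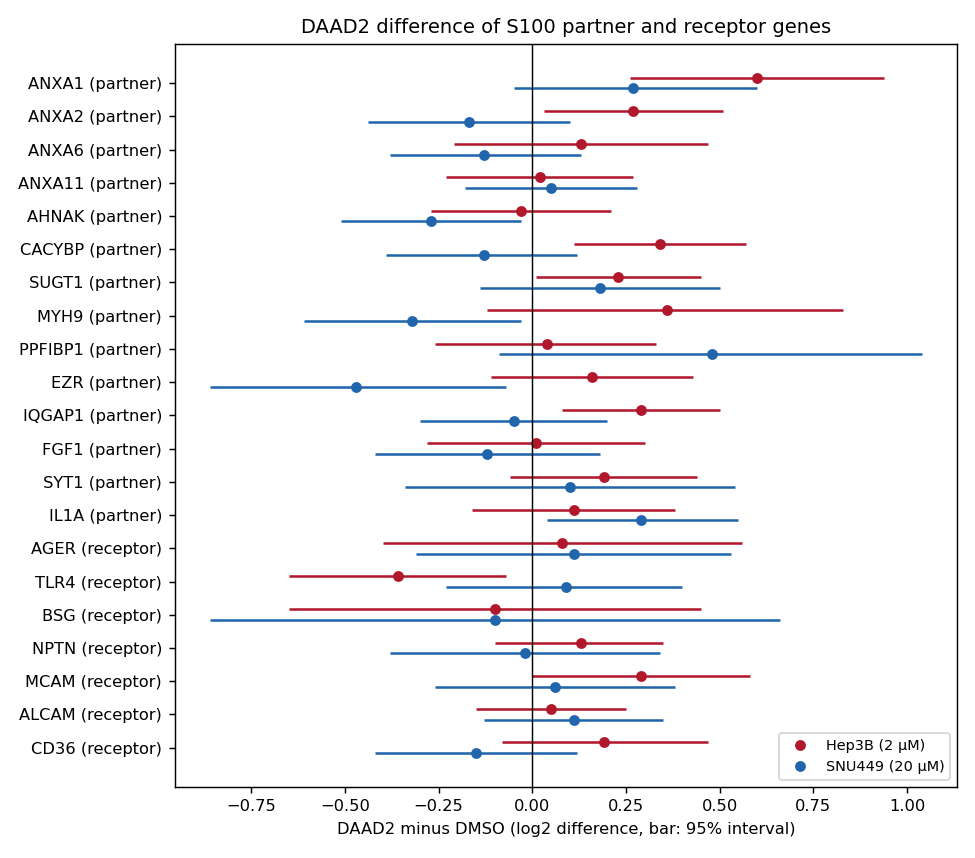
DAAD2 minus DMSO (log2 difference, horizontal axis) for 14 partner and 7 receptor genes of S100 proteins, as the limma estimate with its 95% interval, in Hep3B and in SNU449 from 3 arrays against 3. None passed the test, and 13 of the 14 partner estimates lie above 0 in Hep3B, a count that was 10 after quantile normalization.

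Other EF-hand proteins served as a wider frame, with 15 of 18 listed genes measured. In Hep3B 0 were called after DAAD2, as for all genes, with a median of 0.15. CALML4, a calmodulin-like protein, had the largest difference there, 0.62 (standard error 0.18, adjusted p = 0.18 from limma). In SNU449 1 was called, against 2.38% of all genes: MYL9, the regulatory light chain of smooth muscle and non-muscle myosin. It was at 8.87, 8.75 and 9.19 on SNU449 DAAD2 arrays, against 10.23, 10.19 and 9.97 on SNU449 DMSO arrays, and so fell by 1.19 on the log2 scale (standard error 0.14, adjusted p = 0.00836). This call was lost without SNU449 DMSO replicate 2, without SNU449 DAAD2 replicate 1 and with no moderation of the variances. Between the lines 5 were called higher and 6 lower in Hep3B, against 21.4% and 19.4% of all genes.

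Genes whose levels followed an S100 gene most closely were sought among 10785 genes, as Pearson's r over the 12 arrays after the mean of each line had been subtracted. With 12 arrays and so many genes, high values are found for any gene, and the r is a description only. S100A9 was most like CD4 (0.94), SMLR1 (0.93) and ICAM4 (0.92), and S100A8 most like SLC22A31 (0.94) and C8B (0.92), a chain of complement made in liver. S100A6 was most like SH3GLB1, BZW2 and LARP6 (0.94 each). For S100A13 these were H2AJ (0.98), TMEM256 (0.97) and NICOL1 (0.96). S100A4 was most like PPP1CA and PPP1R15A (0.94 each), S100A10 most like POLR2J (0.93) and S100P most like AOPEP (0.92). The lowest of the best values was 0.83, for S100A14 and ALDOC. Among the 10 genes themselves the closest pair was S100A4 and S100A10 (0.72). In each line both were highest on DMSO replicate 2. That array had the smallest excess of the 3′ over the 5′ GAPDH probe set of its line (0.453 in Hep3B, 0.343 in SNU449). The part of RNA quality in this r was not tested.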

How the data were processed

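Total RNA of both lines was measured on 12 arrays, and groups came from the sample labels. The deposited log2 values were made by the authors with RMA, per the labels, which corrects background, quantile-normalizes arrays and sums up the probes of a probe set. No source used here gives the version of RMA. The study's methods name BRB Array Tools for normalization. Of 54675 rows, 62 control probe sets were left out and none was filtered for low signal. Symbols came from the platform annotation (41091 probe sets with 1 symbol, 1801 with several, 11721 with none). The highest mean over the arrays chose the probe set of a gene, and a few listed genes had none of their own. Some items are not reported here. Depth does not apply to arrays, and 3 arrays a group limit the precision.

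Two-sided comparisons were made in limma 3.58.1 (R 4.3.3) on the arrays compared (the difference between the lines on all 12), with Benjamini-Hochberg adjustment over 54613 probe sets and calls at an adjusted p under 0.05. With 3 arrays against 3, exact permutation reaches no p below 0.1. All p-values rest on differences between arrays of a group, and these may be only technical. The fit was tested on simulated data. The S100 genes, the lists and the rule for named genes (every member, called list genes, otherwise up to 4 with the largest difference) were chosen with earlier results of these data known. Whether the replicate number pairs samples is not stated, and the deviations of same-numbered samples cannot settle it. Alternatives were 1 fit over all arrays, the replicate block, keeping only probe sets over 5 on at least 3 arrays, other scalings and variance models, a fold over 1.5 with an unadjusted p under 0.05, 1 value per gene, RNA integrity as a covariate and each array left out in turn. Promoter windows were read from RefSeq (GRCh38.p14). Figures were drawn with Python 3.11.15, pandas 2.3.3 and matplotlib 3.10.9.

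As a check of the samples, the mean of the 5 epithelial markers was 10.57 to 10.80 on Hep3B DAAD2 arrays, 10.22 to 10.56 on Hep3B DMSO arrays, 5.81 to 6.03 on SNU449 DAAD2 arrays and 5.49 to 5.59 on SNU449 DMSO arrays. That of the 5 mesenchymal markers was 7.25 to 7.46, 7.05 to 7.35, 10.16 to 10.37 and 10.28 to 10.40 on the same groups. On the DMSO arrays 4 of these 5 were lower in Hep3B, CDH2 by only -0.41. FN1 went the other way and was higher in Hep3B, by 0.81.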

Additional observations from a re-analysis of the deposited data

Results flagged for a closer look

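MYL9, a myosin light chain from the list of other EF-hand proteins, differed in its response to DAAD2 between the lines by a test of the difference itself. The Hep3B difference minus the SNU449 difference was 1.39 (standard error 0.25, adjusted p = 0.0154 from limma), and in SNU449 3 of 3 DAAD2 arrays lay below all controls. In Hep3B MYL9 was at 5.26, 5.20 and 5.36 on DAAD2 arrays, against 4.82, 5.55 and 4.88 on DMSO arrays, which overlap. On the DMSO arrays it was lower in Hep3B than in SNU449, by -5.05 (standard error 0.19). A fall therefore had less room to show in Hep3B. MYL9 has 2 probe sets, and only the brighter one was read. The call of the difference between the responses was lost with the replicate block and with no moderation of the variances, 2 of 19 alternatives. The doses also differed between the lines. For the 10 S100 genes this difference is given as a description only, since measured values led to their choice.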

How the results depend on the processing

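Calls of S100 probe sets, given as a description only, depended on few settings. In Hep3B 1 probe set of 14, S100A9 lower, was called with all 12 arrays in 1 fit, and 1 (S100A9) at a fold over 1.5 with an unadjusted p under 0.05, against 0 otherwise. In SNU449 1, S100A13 higher, was called with RNA integrity as a covariate, and leaving out 1 array gave 0 to 1, the 1 being S100A13 without SNU449 DAAD2 replicate 2. For the difference between the lines 1 was called with the RNA covariate (S100A13) and 1 at the fold threshold (S100A9). Among partner and receptor genes in Hep3B 1, ANXA1, passed the fold threshold, against 0. Of the counts of calls 122 values under alternatives stayed close and 7 moved, and of the log2 differences of single S100 genes 608 stayed close and 13 moved. Differences near 0 could change sign: that of S100A4 between the lines' responses (0.13) kept it in 16 of 19 alternatives, and S100A8 in SNU449 (-0.05) in 11 of 14. Same-numbered arrays had deviations correlated at -0.271 to 0.09, and other-numbered arrays at -0.168 to 0.338. Whether the numbers pair arrays is not stated. These values cannot settle it, since deviations from a group mean cancel out within the group. The replicate block left the counts of S100 calls at 0 in Hep3B, 0 in SNU449, 11 between the lines and 0 for the difference.

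Between the lines, the call of S100A16 was lost in 5 of 14 alternatives and that of no other probe set of the 10 genes. Averaging both probe sets of a gene gave -1.61 for S100A6, 0.94 for S100A8, -1.97 for S100A10 and 0.30 for S100A13. The dimmer probe sets of all 4 genes lay below the array medians on 6 to 12 arrays, and S100A8, S100A9, S100A14 and S100P lay near or below them in SNU449, which limits how well their differences are measured.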
